A study of Homo sapiens with 3 samples.

Results

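The genes described here are 5 that encode surface receptors, a mucin or a receptor-linked protein: UNC5B, IL20RB, FCGR2A, MUC4 and SH3TC1. They were chosen by their FPKM, from 58735 genes, as standing in each of 2 TRAF7 knockdown libraries at no more than 50% of the control library. FPKM is the number of reads on a gene scaled by its exon length and by library size. The difference from control was the reason for their choice, so it is given below as a description with no test. Only 4 of the 5 averaged 1 FPKM or more, the limit for the test across genes. MUC4, with a mean of 0.717 FPKM, did not.

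KG1a, the line named in the labels, derives from an acute myeloid leukaemia. Cells of the first group (labels shTRAF7-1 and shTRAF7-2, genotype TRAF7 knockdown, n = 2) were infected with lentivirus carrying a short hairpin against TRAF7, which encodes an E3 ubiquitin ligase. Cells of the second group (label shCtrl, genotype wild type, n = 1) were infected with shCtrl lentivirus. All 3 libraries carry the same batch label, and the labels do not say whether the knockdown libraries hold the same hairpin or separate cultures. The title of the series concerns leukaemia growth and names TWIST1 and P2RX1 beside TRAF7, and the comparison addresses which transcripts differ once TRAF7 is depleted.

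Assigned reads numbered 16221721 in knockdown 1, 16254461 in knockdown 2 and 16014485 in the control. TRAF7 stood at 33.6% and 39.4% of the control in knockdown 1 and 2. The defining surface antigen of the labelled line was absent or nearly so: CD34 had 1 and 10 reads in the knockdown libraries and 0 in the control, where a count of 0 allows up to 0.0193 FPKM at 3 reads. PROM1, another stem cell surface marker, had 0 reads in every library, and the regulator ERG had 1 and 2 reads against 0. The haematopoietic regulators GATA2 (45.3 and 48.8 FPKM in the knockdown libraries, 40.5 in the control) and LYL1 (52.9 and 56.3, against 57.2) were present. Of the 10 progenitor and leukocyte markers, 7 had a mean of at least 1 FPKM, of which 4 were lower in both knockdown libraries and 2 higher. The list summed to 213.6 and 220.9 FPKM in the knockdown libraries and 224.0 in the control. PTPRC was at 5.60 and 6.53 against 9.54. Of 9 epithelial markers, 4 had a mean of at least 1 FPKM, and the list summed to 183.2 and 177.7 FPKM in the knockdown libraries and 167.3 in the control, mostly keratins KRT8 and KRT18. Endothelial markers summed to 0.236 and 0.394 FPKM against 0.335, and stromal markers to 0.311 and 0.730 against 0.678. Monocyte and granulocyte markers summed to 6.20 and 4.24 FPKM against 8.52, of which LYZ made up most, with ELANE, S100A8, S100A9 and FCN1 at 0 reads throughout. Lymphoid markers summed to 6.20 and 8.45 FPKM against 9.55, and erythroid markers to 155.8 and 132.7 against 56.5. On the deposited scale, the progenitor, monocyte and lymphoid sums were lower in both knockdown libraries and the epithelial and erythroid sums higher. Scaling to all assigned reads multiplies FPKM by 0.959, 1.0004 and 1.054 in knockdown 1, knockdown 2 and the control. Under it the epithelial sum of knockdown 1 is no longer above the control, and the size of the progenitor gap changes. The part of these markers in the results below was not tested. In libraries of whole cultures, fewer cells that express a gene and less RNA of it per cell cannot be told apart.

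UNC5B is a receptor for netrins, secreted guidance cues of axons and vessels. It is called a dependence receptor because, in the absence of its ligand, its intracellular death domain can promote apoptosis. IL20RB is the shared chain of the receptors for interleukins 19, 20 and 24, which it forms with IL20RA or IL22RA1 and which signal through JAK kinases and STAT3. FCGR2A is a low-affinity receptor for the Fc part of IgG on phagocytes and platelets, and carries its own activating tyrosine motif in its cytoplasmic tail. MUC4 is a very large membrane mucin of epithelia that binds the receptor tyrosine kinase ERBB2. SH3TC1 encodes a protein with SH3 and tetratricopeptide repeat domains. Its own role is little known, while its paralog SH3TC2 acts at recycling endosomes of Schwann cells.

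In both knockdown libraries every one of the 5 genes stood at or below 38.8% of its control level. UNC5B and IL20RB stood at 2.96% and 5.79% of control in knockdown 1 and at 36.8% and 38.8% in knockdown 2. FCGR2A, MUC4 and SH3TC1 lay between 18.7% and 27.5% in knockdown 1 and between 26.2% and 37.1% in knockdown 2.

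UNC5B (ENSG00000107731, GRCh38 chromosome 10, 71212570 to 71302864, plus strand) had 0.207 FPKM in knockdown 1 (95% Poisson interval 0.129 to 0.313, from 22 reads), 2.57 in knockdown 2 (2.28 to 2.89, from 286 reads) and 6.98 in the control (6.50 to 7.48, from 806 reads). The 3 intervals did not overlap, and knockdown 1 stood at 2.96% of control against 36.8% for knockdown 2. These intervals cover counting error only. The log2 fold change on the log2(FPKM + 1) scale, averaged over the knockdown libraries, was −1.94. An antisense gene within the locus, UNC5B-AS1, had 0 reads in every library.

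IL20RB (ENSG00000174564, chromosome 3, 136946230 to 137011085, plus strand) had 0.468 FPKM in knockdown 1 (0.277 to 0.739, from 18 reads), 3.13 in knockdown 2 (2.61 to 3.73, from 126 reads) and 8.07 in the control (7.23 to 8.98, from 337 reads). Again the intervals were all apart, with 5.79% of control left in knockdown 1 and 38.8% in knockdown 2, which was the highest share of any member. The log2 fold change was −1.88. IL20RB-AS1, antisense to it and overlapping it over 23072 bases, had 4 and 2 reads in the knockdown libraries and 15 in the control. The sources used here do not state strand-specific counting, so reads of this pair cannot be told apart.

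FCGR2A (ENSG00000143226, chromosome 1, 161505430 to 161524013, plus strand) had 2.31 FPKM in knockdown 1 (1.99 to 2.66, from 191 reads), 3.11 in knockdown 2 (2.75 to 3.51, from 269 reads) and 8.39 in the control (7.80 to 9.01, from 753 reads). The intervals were apart here too. FCGR2A stood at 27.5% of control in knockdown 1 and 37.1% in knockdown 2, and its log2 fold change was −1.35. Its paralogs FCGR2B and FCGR2C are nearly identical to it over parts of their length, so the split of reads among the 3 genes is uncertain. FCGR2B had 0 and 0 reads in the knockdown libraries and 7 in the control, and FCGR2C had 4 and 6 reads against 1.

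MUC4 (ENSG00000145113, chromosome 3, 195746765 to 195812277, minus strand) had 0.277 FPKM in knockdown 1 (0.223 to 0.340, from 92 reads), 0.389 in knockdown 2 (0.326 to 0.461, from 135 reads) and 1.48 in the control (1.36 to 1.61, from 534 reads). The intervals of the knockdown libraries overlapped each other and lay below that of the control, with 18.7% and 26.2% of the control level. Its annotated exon length was 21325 bases, the longest of the 5. MUC4 is known for a long tandem repeat, and where its reads lie along the gene was not tested. The log2 fold change was −0.90 with 1 FPKM added, a scale that understates the change of a gene at this level.

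SH3TC1 (ENSG00000125089, chromosome 4, 8182072 to 8241803, plus strand) had 0.661 FPKM in knockdown 1 (0.543 to 0.798, from 109 reads), 1.28 in knockdown 2 (1.11 to 1.46, from 220 reads) and 3.50 in the control (3.23 to 3.79, from 626 reads). The intervals were apart, at 18.9% of control in knockdown 1 and 36.5% in knockdown 2, and the log2 fold change was −1.21.

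**Figure D1:**
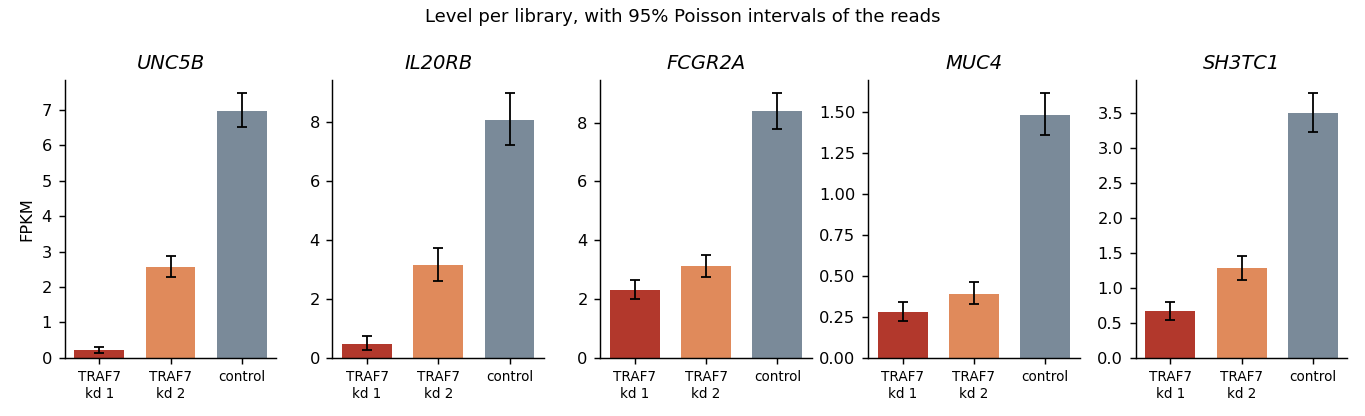
FPKM of the 5 genes in TRAF7 knockdown 1, TRAF7 knockdown 2 and the control library, 1 bar per library, each axis starting at 0; error bars are 95% Poisson intervals of the recovered reads. In every panel both knockdown bars lie below the control, and for UNC5B and IL20RB the bar of knockdown 1 is far below that of knockdown 2.

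The starts of the members differ in base composition. RefSeq promoter windows (GRCh38.p14) were matched for 4 of the 5 members and gave 5 windows, each cut here to the 250 bases before the start; the IL20RB and MUC4 windows overlap exons of the GENCODE annotation by 118 and 250 bases and are described without their letters. The windows of FCGR2A and SH3TC1 are shown because they overlap annotated exons least (27 bases for FCGR2A, 0 and 0 for SH3TC1) and differ in base composition. Capitals mark the E-box word CANNTG, which basic helix-loop-helix factors such as TWIST1 bind, and the GATA word AGATAA, both searched on both strands, with no overlap between them in these windows. The FCGR2A window lies at chr1:161505207-161505456 and the SH3TC1 windows at chr4:8181822-8182071 and chr4:8199040-8199289, all on the plus strand.
FCGR2A: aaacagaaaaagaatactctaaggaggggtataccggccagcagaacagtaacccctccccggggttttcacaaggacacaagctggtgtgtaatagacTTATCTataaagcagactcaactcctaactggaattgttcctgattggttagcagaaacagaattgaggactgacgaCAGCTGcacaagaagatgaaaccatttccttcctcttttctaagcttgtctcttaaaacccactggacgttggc
SH3TC1, first start: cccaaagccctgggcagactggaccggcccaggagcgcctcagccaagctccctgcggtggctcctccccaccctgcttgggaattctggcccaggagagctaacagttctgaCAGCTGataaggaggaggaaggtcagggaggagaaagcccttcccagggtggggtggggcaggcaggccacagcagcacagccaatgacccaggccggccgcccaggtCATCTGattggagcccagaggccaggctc
SH3TC1, second start: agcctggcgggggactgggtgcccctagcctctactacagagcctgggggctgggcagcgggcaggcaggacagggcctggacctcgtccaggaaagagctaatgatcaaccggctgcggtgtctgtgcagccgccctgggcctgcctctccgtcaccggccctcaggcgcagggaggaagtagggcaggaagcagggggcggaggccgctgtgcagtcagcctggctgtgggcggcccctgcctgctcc

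An E-box was present in 3 of the 5 windows, 1 in FCGR2A at 74 bases before the start, 1 in IL20RB at 68 and 2 in the first SH3TC1 window at 137 and 29, and in none of MUC4 or the second SH3TC1 window. Of 35116 such windows in the table, 61.8% held at least 1, so the members' count is near the background. The GATA word was found in FCGR2A at 151 bases and in IL20RB at 219 bases before the start and in 9.17% of all windows. GC content was 44.4% for FCGR2A, 53.6% for IL20RB, 60.4% for MUC4 and 65.6% and 70.4% for SH3TC1, against a median of 58%. CG dinucleotides numbered 4, 4, 7, 5 and 12 in the same order, against a median of 11. The RefSeq starts after the IL20RB window and the second SH3TC1 window lie 11753 and 17218 bases past the GENCODE gene start. A match is a description of the letters and not of a bound site.

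As a share of control, the members lay closer together in knockdown 2 than in knockdown 1. In knockdown 2 UNC5B, IL20RB, FCGR2A and SH3TC1 lay between 36.5% and 38.8% of control with overlapping intervals, and MUC4 at 26.2%. The MUC4 interval (21.6% to 31.8%) overlapped those of SH3TC1 and IL20RB at its upper end and lay below those of UNC5B and FCGR2A. In knockdown 1 the members ranged from 2.96% for UNC5B to 27.5% for FCGR2A. TRAF7 itself differed little between the libraries, at 15.6 FPKM in knockdown 1 and 18.3 in knockdown 2, against 46.5 in the control.

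**Figure D2:**
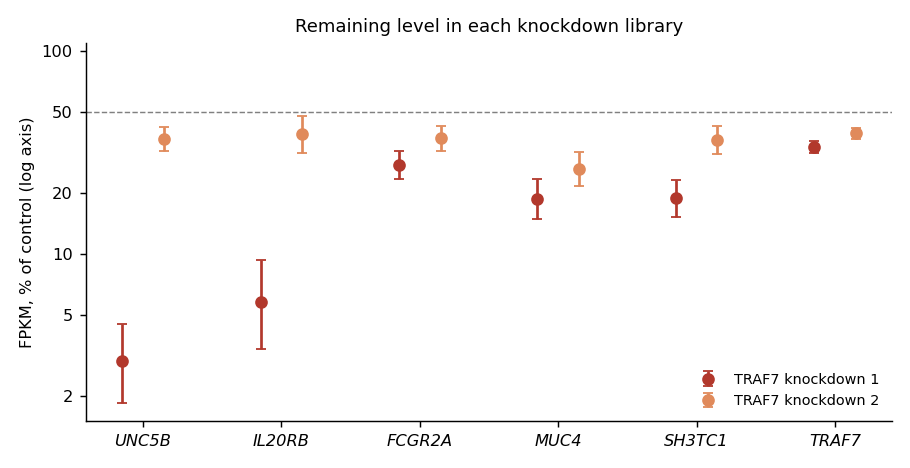
FPKM as a percentage of the control (log axis) in each knockdown library for the 5 genes and TRAF7; bars are exact 95% intervals of the ratio of reads, for counting error only, and the dashed line marks 50%. The points of knockdown 2 lie between 26.2% and 39.4%, while those of knockdown 1 spread from 2.96% to 33.6%.

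The members were chosen by their level in each knockdown library against control, so the gap between these libraries is not independent of that choice. The shares of all genes given here set chosen genes beside mostly unchosen ones and are a description only. UNC5B was 12.4 times as high in knockdown 2 as in knockdown 1 (exact 95% interval 8.06 to 20.2) and IL20RB 6.70 times (4.07 to 11.7). SH3TC1 was 1.93 times as high (1.53 to 2.45), MUC4 1.40 times (1.07 to 1.85) and FCGR2A 1.35 times (1.12 to 1.63). Of the 12640 genes averaging 1 FPKM or more, 0.578% had a gap between the knockdown libraries as wide as UNC5B on the log2(FPKM + 1) scale, and 0.696% as wide as IL20RB. For FCGR2A and SH3TC1 those shares were 24.2% and 12.1%. Among tested genes within 2-fold of the same mean reads, the shares were 17.9% for FCGR2A and 7.87% for SH3TC1. They were 0.0714% for UNC5B and 0.181% for IL20RB. A comparison of 2 single libraries has no replicate check and says nothing of the conditions.

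By level per exon length, the order of the members in knockdown 1 differed from that in the other libraries. Knockdown 2 and the control differed only in the order of IL20RB and FCGR2A, whose intervals overlapped in both. In knockdown 1 FCGR2A was the highest and was followed by SH3TC1, IL20RB, MUC4 and UNC5B, where the last 4 each overlapped their neighbour in order. In knockdown 2 IL20RB, FCGR2A and UNC5B came first with overlapping intervals between neighbours, then SH3TC1 and MUC4, each apart from the one above. The control had FCGR2A, IL20RB and UNC5B first, again with overlap between neighbours, then SH3TC1 and MUC4, each apart. In the control 79.3% of genes with any read had a lower FPKM than FCGR2A and 76.4% than UNC5B, whereas in knockdown 1 24.1% were lower than UNC5B. The 5 genes together held 432 reads in knockdown 1, 1036 in knockdown 2 and 3056 in the control.

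Among genes averaging 10 reads or more, 287 of 15034 met the same limit of at most 50% of control in both knockdown libraries, which is 1.91%, and among the 12640 averaging 1 FPKM or more it was 140, or 1.11%. The rule used this contrast, so nothing is read from the members' count. Ordered by the larger of the 2 percentages, from the lowest, MUC4 was number 23 of the 287, SH3TC1 78, UNC5B 81, FCGR2A 82 and IL20RB 103. The member nearest to the limit was IL20RB at 38.8%. Just inside the limit and not among the members lay OSMR, the receptor of oncostatin M, at 49.5% and 28.8% of control, and just outside it PHGDH, the first enzyme of serine synthesis, at 29.4% and 51.6%. By limma with an intensity trend on log2(FPKM + 1), 0 of the 12640 genes passed an adjusted p of 0.05 (0% called), 1161 (9.19%) had an unadjusted p under 0.05, of which 471 (3.73%) were lower, and limma-voom on recovered reads called 99 lower genes (0.659%) and 31 higher genes (0.206%) of 15034.

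Most netrin ligands and receptors were at few or no reads, while DAPK1, an intracellular partner of UNC5B, was measured. Of the other 19 genes of the netrin list, 17 were below the filter and 7 of those had 0 reads in every library. Its paralogs UNC5C and UNC5D and the netrin receptor DCC had 0 reads in all 3 libraries, and UNC5A had 0 and 2 reads in the knockdown libraries and 4 in the control. The ligand NTN1 had 6 and 25 reads against 18, the receptor NEO1 1 and 4 against 5, and ROBO4, an endothelial receptor that binds UNC5B, 0 throughout. The 2 measured genes were DAPK1, a death-associated kinase that UNC5B engages, at 5.01 and 6.41 FPKM in the knockdown libraries and 5.82 in the control, and UNC5CL, an UNC5-like protein, at 1.68 and 2.27 against 1.95. Neither passed the test by limma (adjusted p = 0.973 and 0.993), and the 2 had a median log2 fold change of −0.01. Among 8 measured receptors for other guidance cues, 3 stood lower in both knockdown libraries and 0 higher (median −0.12). The semaphorin receptors PLXNA1 (15.6 and 12.2 FPKM against 18.5) and PLXNB1 (4.09 and 3.08 against 4.83) had the lowest p (limma adjusted p = 0.617 and 0.654). Next in p were PLXNA3 (log2 fold change −0.24), PLXND1 (−0.13) and PLXNB2 (−0.11).

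IL20RB likewise had no measured partner chain. IL20RA had 0 reads in all libraries, IL22RA1 had 0 and 0 reads in the knockdown libraries and 2 in the control, and the ligand genes IL19, IL20 and IL24 had 0 throughout. The kinases and transcription factors downstream were abundant. JAK1, the kinase that binds the partner chains, stood at 21.8 and 18.6 FPKM against 18.6, STAT3 at 28.9 and 26.6 against 23.0, and STAT5A at 124.3 and 125.7 against 143.3. IL10RA, the interleukin 10 receptor chain, was at 2.49 and 2.13 against 3.22 FPKM, and the feedback inhibitor SOCS3 at 1.08 and 1.66 against 1.99. Of 14 measured genes of this list, 8 were lower in both libraries and 3 higher (median log2 fold change −0.16), and 0 passed by limma adjusted over all genes, with 0 at an unadjusted p under 0.05 and 0 by limma-voom.

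Other cytokine receptors split, with 8 of 17 lower in both libraries and 5 higher (median −0.01). IL13RA1 was at 3.87 and 4.02 FPKM against 5.58, IL11RA at 1.58 and 1.57 against 2.32 and IL15RA at 4.46 and 5.48 against 6.32. The tumour necrosis factor receptors were on the other side, TNFRSF1A at 12.98 and 11.4 FPKM against 8.89 and TNFRSF1B at 13.4 and 13.4 against 10.4. Limma called 0 of the 17 over all genes and 0 at an unadjusted p under 0.05. OSMR, below the filter at 0.797 and 0.463 FPKM against 1.61, fell by limma-voom (adjusted p = 0.0366; 89 and 54 reads against 195).

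In the list around FCGR2A, CARD9 and VAV1 had the lowest p. CARD9, an adaptor that links activating receptors of myeloid cells to NF-kB, was at 9.37 and 8.86 FPKM in the knockdown libraries and 16.2 in the control (log2 fold change −0.77 ± 0.18, SE; limma adjusted p = 0.403) and fell by limma-voom (adjusted p = 0.0321). VAV1, a signalling protein downstream of immune receptors, was at 1.49 and 1.51 against 3.29 (−0.78 ± 0.21; limma adjusted p = 0.445; limma-voom 0.0616). The kinase BTK was at 14.9 and 15.4 against 21.01 FPKM. These 3 of 8 were the genes of the list with an unadjusted limma p under 0.05, beside 3.73% of all genes tested that were lower at that p, and 0 passed adjusted over all genes. The Src family kinase LYN, which phosphorylates the receptor tail, was at 16.8 and 16.1 against 15.9, and its relative FYN at 4.18 and 5.02 against 3.88. The cytosolic IgG receptor TRIM21 was at 5.80 and 6.22 against 5.005. SYK, the kinase that docks on the phosphorylated motif, had 0 and 4 reads in the knockdown libraries and 0 in the control, and the Src family kinase FGR had 0 throughout. The other IgG receptors were at the level of single reads, FCGR1A with 0 and 6 against 12, FCGR3A with 0 and 4 against 0 and FCGR3B with 0 and 1 against 6. In the whole list, 4 of 8 measured genes stood lower in both libraries and 3 higher (median −0.07).

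Further leukocyte surface genes gave 5 lower in both libraries and 3 higher of 12 measured (median −0.08; 0 passed by limma over all genes, 0 at an unadjusted p under 0.05, 0 by limma-voom). The tetraspanin CD53 was at 1.105 and 1.66 FPKM against 2.45, the adhesion receptor ADGRE2 at 1.39 and 1.13 against 2.20 and the sialic acid receptor CD33 at 2.66 and 5.48 against 5.37. CLEC11A, a secreted growth factor, was at 9.14 and 8.96 against 7.82 and the complement inhibitor CD59 at 7.87 and 7.61 against 6.70. Of the other 45 genes, all below the filter, 19 had 0 reads in every library.

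Besides MUC4, 3 genes of the mucin list were measured. MUC19, a gel-forming mucin, was at 3.16 and 1.67 FPKM in the knockdown libraries and 4.49 in the control (log2 fold change −0.72 ± 0.30, SE; limma adjusted p = 0.550) and fell by limma-voom (adjusted p = 0.0357). The membrane mucin MUC1 was at 5.22 and 3.39 FPKM against 4.43 and the sialomucin CD164 at 21.6 and 21.1 against 22.5 (limma adjusted p = 0.966 and 0.927). MUC20, which neighbours MUC4, had 0 and 1 reads against 2, and 7 mucin genes had 0 reads throughout. The known partner ERBB2 was at 1.25 and 1.99 FPKM against 1.45, and its relative ERBB3, below the filter, at 0.562 and 0.537 against 0.930. Among 13 measured ERBB and O-glycosylation genes, 4 stood lower in both libraries and 4 higher (median 0.04), and 0 passed by limma over all genes, at an unadjusted p under 0.05 or by limma-voom. The transferase GALNT2, which starts O-glycan chains, was at 17.7 and 18.9 FPKM against 13.7, and the chaperone C1GALT1C1 at 6.70 and 5.99 against 4.91. ST6GALNAC1, which caps such chains with sialic acid, was at 14.4 and 24.5 against 26.4, ST6GALNAC4 at 14.02 and 11.9 against 16.1, and GALNT12 at 12.5 and 17.3 against 18.03.

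SH3TC2, the paralog of SH3TC1, had 0 and 9 reads in the knockdown libraries and 5 in the control. Of 10 measured genes of recycling endosomes, 6 were lower in both libraries and 4 higher (median −0.06), and 0 passed by limma over all genes. TFRC, the transferrin receptor that recycles through these endosomes, was at 95.7 and 71.98 FPKM against 49.5 and rose by limma-voom (adjusted p = 0.0375). RAB11A, the GTPase of the compartment, was at 17.3 and 17.8 against 12.96, and RAB11B at 43.8 and 39.1 against 36.7. Of its effectors, RAB11FIP1 was at 6.56 and 7.62 against 7.91 FPKM, RAB11FIP2 at 1.62 and 1.62 against 1.94 and RAB11FIP5 at 7.33 and 7.33 against 6.93 (limma adjusted p = 0.840, 0.850 and 0.928).

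Over all 9 lists, with the members left out, 87 of 263 genes were measured. Of these, 40 (46.0%) were lower in both knockdown libraries and 22 (25.3%) higher, beside 30.8% and 42.5% of all genes tested. Their median log2 fold change was −0.07, against 0.04 for all genes tested. At most 50% of control in both libraries was met by 1 of them, VAV1, which is 1.15% and close to the 1.11% of all genes. This closeness depends on the filter. Among the 116 list genes averaging 10 reads or more, VAV1, OSMR, INPP5D, CD84 and ITGAM met the limit, beside 1.91% of all genes. The lists were written with earlier results known, so nothing is read from either count.

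**Figure D3:**
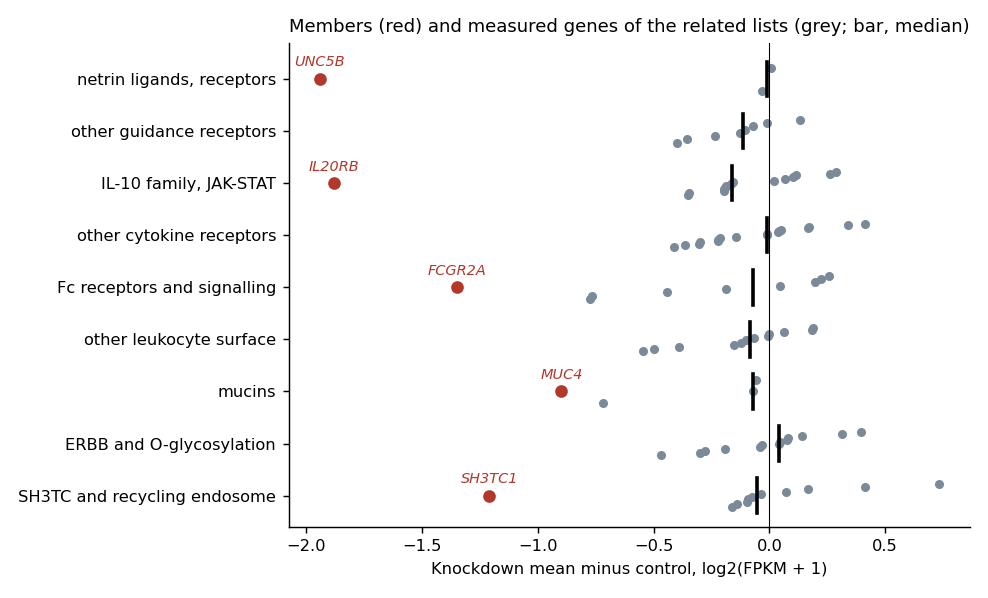
Mean difference of the TRAF7 knockdown libraries from the control on the log2(FPKM + 1) scale for the 5 members (red) and for each related list's genes averaging 1 FPKM or more (grey points, black bar at their median). The list medians lie between −0.16 and 0.04 and the members between −1.94 and −0.90.

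Within 500 kb of the 5 starts, 28 of 56 neighbours were measured, of which 5 (17.9%) stood lower in both libraries and 14 (50%) higher, beside 30.8% and 42.5% of all genes tested. Their median log2 fold change was 0.08. By limma 0 passed adjusted over all genes. At an unadjusted limma p under 0.05, 0 were lower and 2, PFDN2 and TFRC, higher, beside 9.19% of all genes in either direction. The nearest neighbours of UNC5B were PCBD1 (28.8 and 29.3 FPKM in the knockdown libraries, 24.4 in the control) and SLC29A3 (1.28 and 1.27 against 1.57). NCK1, whose annotated end overlaps the start of IL20RB by 3594 bases on the same strand, was at 4.67 and 4.32 against 3.80 FPKM. TNK2, upstream of MUC4, was at 3.27 and 3.52 against 3.49. HTRA3, on the far side of SH3TC1, had 3 and 1 reads against 7. Of the 28 measured neighbours 0 met the limit of 50% of control in both libraries, beside 1.11% of all genes. Of the 39 averaging 10 reads or more 2 met it, beside 1.91% of all genes: HSPA6 beside FCGR2A and CPZ beside SH3TC1. HSPA6, a stress-inducible heat shock gene whose start lies 19.1 kb beyond that of FCGR2A, had 0 and 3 reads in the knockdown libraries and 28 in the control. It fell by limma-voom (adjusted p = 0.00851). The start of HSPA6 lies close past the annotated end of FCGR2A, and the origin of its few reads was not tested. CPZ, a carboxypeptidase whose start lies 411 kb beyond that of SH3TC1, had 9 and 10 reads against 35 (limma-voom adjusted p = 0.230). On the other side of FCGR2A, CFAP126 had 0 reads throughout.

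**Figure D4:**
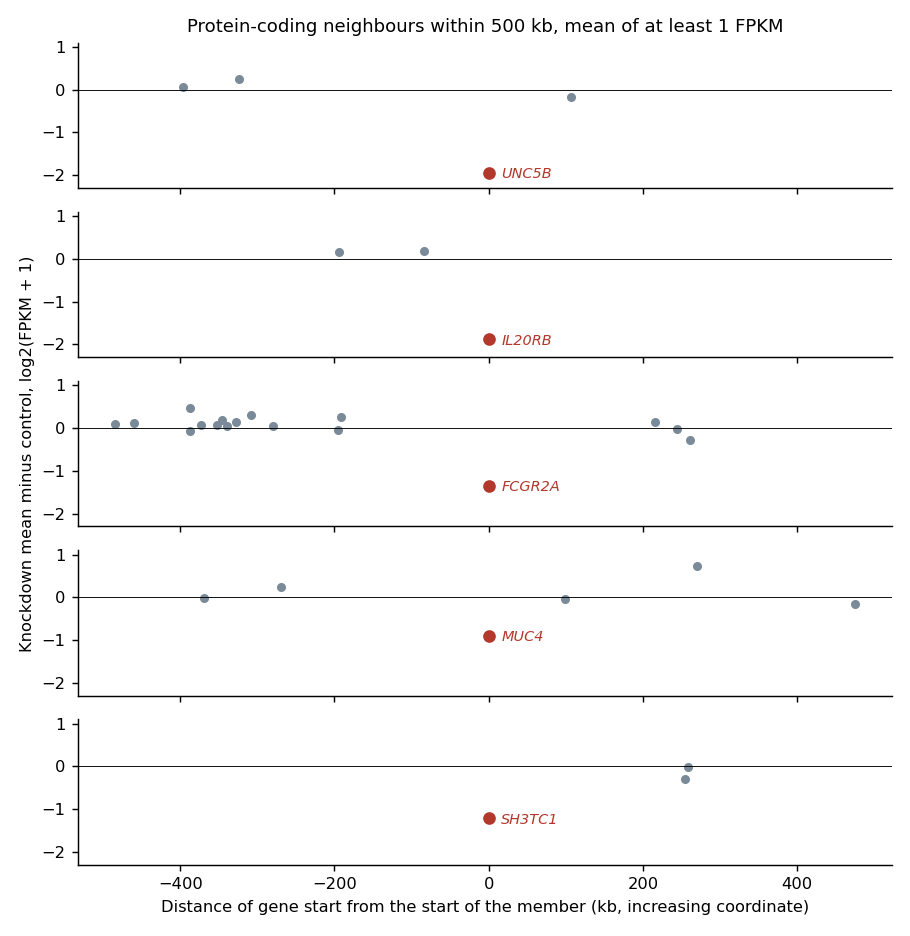
Mean difference of the TRAF7 knockdown libraries from the control on the log2(FPKM + 1) scale for each member (red, at 0) and for protein-coding neighbours averaging 1 FPKM or more (grey), against distance between gene starts in kb. The grey points lie between −0.30 and 0.73, the highest being TFRC beside MUC4 and, at 0.48, PFDN2 beside FCGR2A, and each member lies below its neighbours.

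Genes with the most similar pattern were sought among 8744 protein-coding genes averaging 2 FPKM or more, by distance from the members' median pair of log2 differences (−1.50 in knockdown 1 and −1.13 in knockdown 2). With 3 libraries this likeness rests on 2 values that share a control. VENTX, a homeobox gene of myeloid cells, came first at 1.96 and 2.51 FPKM in the knockdown libraries and 6.53 in the control, a distance of 0.16. TRAF7 itself was second, also at 0.16, with 33.6% and 39.4% of control. They were followed by MMP17, a membrane-anchored metalloprotease (2.78 and 4.07 FPKM against 8.85), and the splicing factor gene U2AF1 (0.838 and 1.94 against 4.73), which has a near-identical copy so that its reads are uncertain. The granule protein gene AZU1 (1.30 and 2.24 against 5.02) and PHGDH (17.98 and 31.6 against 61.2) completed the 6. UNC5B and IL20RB lay far from this centre along knockdown 1 only, at −2.73 and −2.63.

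**Figure D5:**
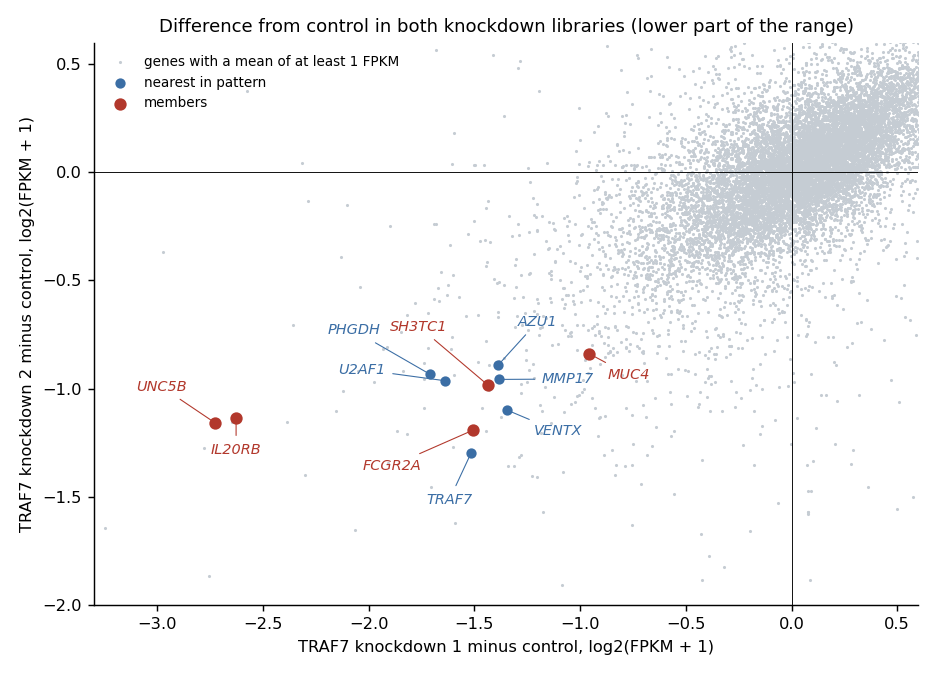
Difference from the control on the log2(FPKM + 1) scale in TRAF7 knockdown 1 (horizontal) and knockdown 2 (vertical), showing the lower part of the range, for genes averaging 1 FPKM or more (grey), the members (red) and the 6 genes nearest to their median (blue). UNC5B and IL20RB sit together on the left at about −2.7 in knockdown 1, and FCGR2A and SH3TC1 sit with TRAF7 near −1.5.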

How the data were processed

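RNA of 2 TRAF7 knockdown libraries and 1 control library was compared. The authors deposited FPKM values per Ensembl gene, per the file headers; BWA, Bowtie and hg19 appear, without roles, among the submitters' processing notes. How reads were counted is not stated in any source used. All 58735 identifiers matched GENCODE release 29 (GRCh38), whose summed exon lengths turned 100% of values above 0 into whole reads (within 0.05), so coordinates are from that release. The library sizes implied by the deposited values were not the totals of assigned reads. Relative to the geometric mean of those totals, they were 0.9629, 1.0061 and 1.0446 (knockdown 1, knockdown 2, control). Exact 95% intervals come from the recovered reads and cover counting error only.

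The test was limma 3.58.1 (R 4.3.3) on log2(FPKM + 1) with its trend option, for genes averaging 1 FPKM or more, with Benjamini-Hochberg adjustment at 0.05 over all genes. It has 1 residual degree of freedom, from the knockdown pair, and assumes that the lone control varies alike. Limma shares this spread between 2 samples, which may be technical, over all genes. A p-value therefore does not rest on the spread of its own gene alone. Limma-voom on reads (mean of at least 10) was the main alternative. Both were tested on simulated data with changed genes put in. The direction of change was recovered, but neither test called any of those genes at the adjusted threshold. The simulation gave every gene the same variation beyond counting error, while in the real data limma-voom called 130 genes. It thus differs from these data and cannot set the power of either test here. No conclusion is drawn from a lack of calls. The members and the 9 related lists were chosen with earlier results of these data known, and no p was computed over a list. Named genes are TRAF7, the members and their paralogs, up to 5 measured genes of lowest p per list, the nearest neighbour on each side and the 6 nearest in pattern; known partners, genes at few reads and genes near the limit of 50% were named after their values were seen. One list symbol, an older name of ADGRE5, was not matched and is covered by its newer name. A few genes that this rule names are not reported here.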

Additional observations from a re-analysis of the deposited data

How the results depend on the processing

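All 5 members were lower than control in every setting run, and all 5 stayed at or under 50% of control in both knockdown libraries under median-of-ratios rescaling (highest 37.8%) and under scaling to all assigned reads (36.8%, added after seeing the data). Their log2 fold changes depend on the pseudocount because the genes are low. With a pseudocount of 0.1 FPKM they were −2.97 for UNC5B, −2.59 for IL20RB, −1.61 for FCGR2A, −1.88 for MUC4 and −1.81 for SH3TC1, and with 5 FPKM −0.93, −0.97, −0.80, −0.28 and −0.51. For FCGR2A, MUC4 and SH3TC1 they were by limma-voom −1.64, −2.17 and −1.92, and for UNC5B −3.21. Quantile normalization gave −0.81 for MUC4. With 1 knockdown library left out the values ranged from −2.73 to −1.16 for UNC5B, −2.63 to −1.13 for IL20RB, −1.50 to −1.19 for FCGR2A, −0.96 to −0.84 for MUC4 and −1.44 to −0.98 for SH3TC1. At a mean of at least 5 FPKM no member is left in the table. The count of genes past the adjusted threshold, 0 in the main test, was 3 at a mean of at least 5 FPKM, 130 by limma-voom and 13 among protein-coding genes (added after seeing the data). The count at most 50% of control in both libraries, 140, was 3188 with no filter, 20 at a mean of at least 5 FPKM, 287 for genes averaging 10 reads or more, and 336 to 578 with 1 knockdown library left out. Medians of 9 lists changed sign for 1 list under median-of-ratios rescaling and under scaling to all reads (ERBB and O-glycosylation), for 1 under quantile normalization and without knockdown 1 (netrin), and for 2 without knockdown 2 (ERBB and O-glycosylation, other cytokine receptors). The causes were not tested. Depth limits the low end: UNC5B and IL20RB rest on 22 and 18 reads in knockdown 1. No paired analysis was possible because there was a single control library and the labels name no pairing.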
